A study of Mus musculus with 16 samples.

Results

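The 10 genes described here belong to mitochondrial NADPH supply and to the peroxiredoxin and thioredoxin families of several cell compartments. They were followed through left ventricles of PKM2fl/fl and PKM2-/- mice. They are nicotinamide nucleotide transhydrogenase (Nnt), the peroxiredoxins Prdx1, Prdx2, Prdx3, Prdx5 and Prdx6, the thioredoxins Txn1 and Txn2, and the thioredoxin reductases Txnrd1 and Txnrd2. They were found by gene symbol, and all 10 are among the 55492 genes of the deposited table. The genes were chosen by name with the baseline difference between the genotypes already known, so their baseline values are given below as a description without a test. All 16 libraries came from male C57BL/6 mice of 8 to 12 weeks. Of each genotype, 2 hearts were untreated (baseline), 3 were collected 3 days after sham surgery, and 3 were collected 3 days after myocardial infarction (MI), made by permanent ligation of the left anterior descending artery. PKM2fl/fl mice carry loxP sites around exon 10 of Pkm, the exon of the PKM2 form of pyruvate kinase, and served as controls. PKM2-/- mice lack that exon in all cells, after CMV-Cre excision and breeding to remove the Cre, so a difference between genotypes is not limited to cardiomyocytes. Tissue was frozen and ground before extraction, and each library therefore mixes all cell types of the ventricle. The labels give no substrain. This bears on Nnt, because C57BL/6J mice are known to carry a deletion within that gene which C57BL/6N mice do not carry. A single count for the gene does not show which allele was present. Per the paper, the PKM2fl/fl and CMV-Cre lines both came from the Jackson Laboratory, and PKM2-/- mice descend from their cross. Whether the Nnt allele differed between the genotypes was not tested. In a genotype difference of Nnt, PKM2 loss and the Nnt allele therefore cannot be told apart.

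Peroxiredoxins reduce hydrogen peroxide and other peroxides with a reactive cysteine. Most of them are returned to the reduced form by thioredoxin, which thioredoxin reductase recharges with electrons from NADPH. The system is split between compartments of the cell. Prdx1, Prdx2, Prdx6, Txn1 and Txnrd1 act mainly in the cytosol, Prdx3, Txn2 and Txnrd2 in mitochondria, and Prdx5 in mitochondria, peroxisomes and cytosol. Nnt is a proton-driven enzyme of the inner mitochondrial membrane that makes NADPH from NADH, and the heart, rich in mitochondria, is one of the tissues in which it is abundant. Oxidative stress is known to induce Prdx1, Txn1 and Txnrd1 through the transcription factor NRF2, which binds antioxidant response elements.

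In GRCm38.p6, the build of mm10, Nnt lies on chr13:119335527-119409257. Prdx1 (chr4:116685599-116700000) and Txn1 (chr4:57943373-57956411) share a chromosome, and so do Prdx3 (chr19:60864066-60874538) and Prdx5 (chr19:6906697-6910106). Prdx2 is on chr8:84969622-84974811, Prdx6 on chr1:161240112-161251210, Txn2 on chr15:77915051-77928994, Txnrd1 on chr10:82833951-82897724 and Txnrd2 on chr16:18426417-18479073. RefSeq promoter sequences of this build were at hand for 8 of the 10 genes, in 10 promoters, of which 3 belong to Txnrd1. Promoters of Nnt and Prdx6 were not analysed here. Each promoter window was searched on both strands for TGACNNNGC, the core of the antioxidant response element. It occurred in 2 of the 10 promoters, at Prdx1 and at the second start of Txnrd1. Both sequences are shown because Prdx1 and Txnrd1 are among the members that were higher after MI, Prdx1 past the test in PKM2-/- but not in PKM2fl/fl hearts, with the match, which is on the opposite strand, in capitals. The Prdx1 window covers chr4:116685446-116685494 and the Txnrd1 window chr10:82859094-82859142, both written on the plus strand, which is the coding strand of each gene.
Prdx1: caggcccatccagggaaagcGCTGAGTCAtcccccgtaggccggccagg
Txnrd1: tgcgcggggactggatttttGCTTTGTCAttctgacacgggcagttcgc
The Prdx1 match lies 133 to 125 bases before the annotated start and the Txnrd1 match 92 to 84 bases before it. Of 32851 promoters in the table, 12.4% held the same letters, and Txn1, which was also higher after MI, held none in its window. These are matches of letters, and binding was not measured.

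The values are read counts divided by a size factor for each library (normalized counts), and total reads ranged from 20623769 to 71855101 per library. Other than Txnrd2, each member had at least 484 reads in every library. Txnrd2 had 0 to 103 reads per library and is treated apart. A share of 18.8% to 49.2% of the reads of a library fell on its 5 most abundant genes. The level of Pkm cannot serve to check the deletion, since the count covers PKM1 and PKM2 together. It was 9108 to 9602 normalized counts in PKM2fl/fl and 11981 to 12984 in PKM2-/- hearts at baseline.

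At rest, Prdx3, Nnt and Prdx5 were the most abundant members. The order of levels was taken per kilobase of the canonical transcript (GENCODE, lengths from GRCm39), so that genes could be compared. For Nnt this transcript had 3709 bases in 17 exons, and whether the mice carried that form is not known. In PKM2fl/fl hearts at baseline, Prdx3 stood first with 2880.0 ± 7.75 normalized counts per kb (SD, n = 2), followed by Nnt with 2411 ± 140.4 and Prdx5 with 2219 ± 50.2. Prdx2 (1774 ± 108) and Prdx1 (1445 ± 56.1) came next. Txn2 (1107 ± 21.6) and Txn1 (1099.6 ± 6.66) could not be ordered, as their ranges overlapped, whereas Prdx6 (913 ± 39.1) and Txnrd1 (386 ± 21.2) were each below all genes before them. In PKM2-/- hearts at baseline, Nnt (3620.2 ± 25.7 normalized counts per kb) stood above Prdx3 (2769 ± 12.0), and Prdx5 again came after them, while Prdx2 and Prdx1 overlapped. After MI, Prdx1 and Txn1 led. In PKM2fl/fl hearts the highest were Prdx1 (1934 ± 237 per kb) and Txn1 (1875 ± 70.0), whose ranges overlapped, and in PKM2-/- hearts Txn1 (2708 ± 235) stood above Prdx1 (1992 ± 117). Nnt was then sixth by its mean in PKM2fl/fl hearts (716 ± 289 per kb), but its range overlapped those of Prdx5, Prdx2, Txnrd1, Txn2 and Prdx6. By its mean it was ninth in PKM2-/- hearts (539.6 ± 125). There its range overlapped those of Txn2 and Prdx6 above it, and Txnrd2 alone was below.

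**Figure D1:**
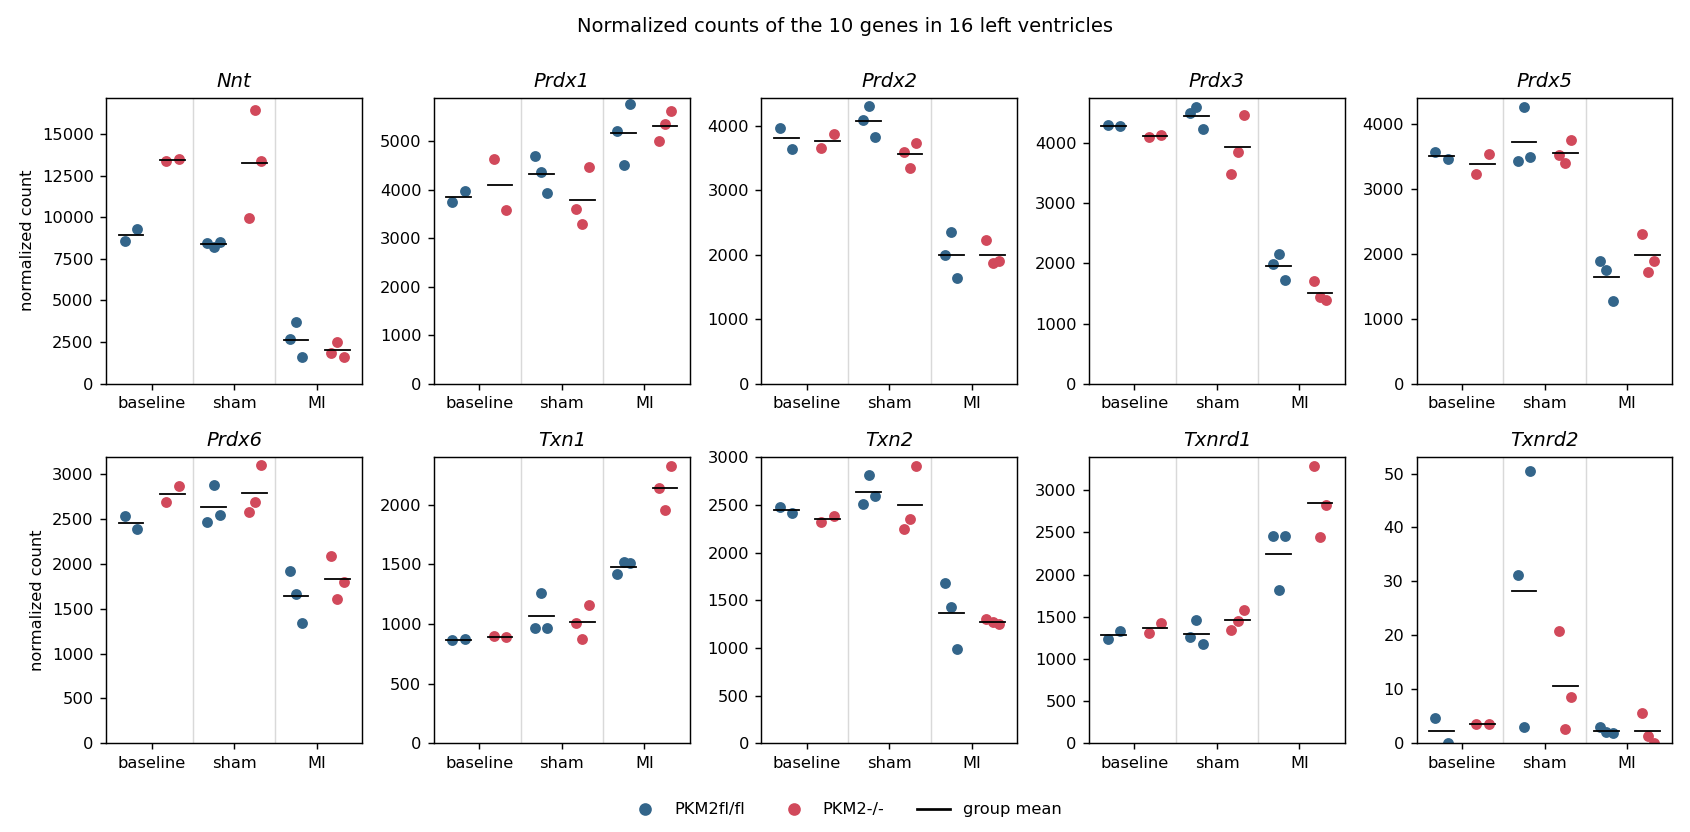
Normalized counts (vertical axis, linear, starting at 0, with its own scale for each gene) of the 10 genes in the 16 left ventricles, grouped by treatment on the horizontal axis. Each point is 1 library (blue PKM2fl/fl, red PKM2-/-) and black lines are group means; Nnt, Prdx2, Prdx3, Prdx5, Prdx6 and Txn2 sit lower after MI in both genotypes and Txn1 and Txnrd1 sit higher.

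MI was the treatment after which most of these genes passed the test. At 3 days after ligation, Nnt, 4 of the 5 peroxiredoxins and the mitochondrial thioredoxin Txn2 were lower than after sham surgery in both genotypes. The cytosolic pair Txn1 and Txnrd1 was higher in both. Prdx1 was higher in PKM2-/- hearts and did not pass the test in PKM2fl/fl hearts. Tests are limma-trend on log2(normalized count + 1) over the 12 sham and MI libraries, adjusted by Benjamini-Hochberg over 20604 genes and called at an adjusted p under 0.05, and all fold changes are on that scale.

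Nnt had the largest change among the 9 well-measured members. In PKM2fl/fl hearts it had 8479, 8228 and 8496 normalized counts after sham surgery and 2659, 3726 and 1583 after MI. In PKM2-/- hearts it had 9946, 16439.6 and 13368 after sham surgery and 1873, 2518 and 1614 after MI. The MI and sham hearts did not overlap in either genotype, and the sham PKM2-/- hearts were spread over a wider range than the sham PKM2fl/fl hearts. After MI, Nnt stood at 29.8% of its sham level in PKM2fl/fl hearts (log2 fold change -1.75, standard error 0.27, limma adjusted p = 0.000172). It stood at 15.2% in PKM2-/- hearts (log2 fold change -2.72, standard error 0.27, limma adjusted p = 4.49e-06).

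Prdx3, the peroxiredoxin of the mitochondrial matrix, was the most reduced of its family in PKM2-/- hearts and level with Prdx5 in PKM2fl/fl hearts. PKM2fl/fl hearts had 4494, 4593 and 4237 normalized counts after sham surgery against 1982, 2156 and 1723 after MI. PKM2-/- hearts had 3482, 3857 and 4468 against 1706, 1446 and 1392. No MI heart reached the lowest sham heart of its genotype. The log2 fold change was -1.19 (standard error 0.12, limma adjusted p = 8.12e-06) in PKM2fl/fl and -1.38 (standard error 0.12, limma adjusted p = 2.20e-06) in PKM2-/- hearts.

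Prdx5, which reduces peroxides in several compartments, also separated MI from sham hearts. It had 3417, 4249.7 and 3488 normalized counts in PKM2fl/fl sham hearts and 1887, 1750.0 and 1273 after MI. In PKM2-/- hearts it had 3511, 3398 and 3748 after sham surgery and 2309, 1716 and 1894 after MI. The change was -1.20 ± 0.15 (log2, standard error) in PKM2fl/fl and -0.86 ± 0.15 in PKM2-/- hearts. Prdx2, a cytosolic enzyme that is abundant in red blood cells, had 3816 to 4300.0 normalized counts in PKM2fl/fl sham hearts and 1645 to 2353 after MI, and 3347 to 3737 against 1869.7 to 2228 in PKM2-/- hearts. Its log2 changes were -1.04 ± 0.13 and -0.84 ± 0.13. None of the 5 erythroid genes (hemoglobins and Alas2) passed the test between MI and sham hearts in either genotype, while their summed level in single libraries ran from 3952 to 21438 normalized counts, the highest in a PKM2-/- MI heart.

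Prdx6, which uses glutathione rather than thioredoxin as its reductant, had the smallest of the decreases. It ranged from 2471 to 2880.3 normalized counts in PKM2fl/fl sham hearts and from 1344 to 1923 after MI. The ranges in PKM2-/- hearts were 2575 to 3103 and 1606 to 2092. The log2 changes, -0.69 ± 0.14 and -0.61 ± 0.14 (standard error), passed the test in both genotypes. Prdx1, a cytosolic peroxidase, went the other way. It had 4693, 4359.5 and 3941 normalized counts in PKM2fl/fl sham hearts and 5214, 4513 and 5779 after MI, where the groups overlapped (log2 fold change 0.25, 95% interval -0.03 to 0.54, limma adjusted p = 0.135). In PKM2-/- hearts it had 3604, 3291 and 4476 after sham surgery and 5000.1, 5352 and 5622 after MI, with all MI hearts above all sham hearts (log2 fold change 0.50, standard error 0.13, limma adjusted p = 0.00590).

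The thioredoxins parted by compartment. Txn2, the mitochondrial form, had 2513, 2812 and 2599 normalized counts in PKM2fl/fl sham hearts and 1685, 1431 and 991 after MI. It had 2244, 2348 and 2905 in PKM2-/- sham hearts and 1300.3, 1277 and 1248 after MI. The log2 fold changes were -0.98 ± 0.16 and -0.96 ± 0.16 (standard error), and no MI heart overlapped a sham heart. Txn1, the cytosolic form, had 964, 1256 and 969 normalized counts in PKM2fl/fl sham hearts and 1418, 1516 and 1509.9 after MI. In PKM2-/- hearts it had 1009.6, 874 and 1161 after sham surgery and 2139, 1954 and 2324 after MI. All MI hearts were above all sham hearts of their genotype. The increase was 1.40-fold in PKM2fl/fl (log2 0.49, standard error 0.13, limma adjusted p = 0.00724) and 2.12-fold in PKM2-/- hearts (log2 1.08, standard error 0.13, limma adjusted p = 1.89e-05).

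Txnrd1, the selenoprotein that reduces Txn1, moved with its substrate. PKM2fl/fl hearts had 1257, 1461 and 1179 normalized counts after sham surgery and 2453, 1817 and 2456 after MI. PKM2-/- hearts had 1349, 1447 and 1581 against 3286, 2444 and 2825. MI and sham hearts were fully separated, with a 1.72-fold increase in PKM2fl/fl (limma adjusted p = 0.000674) and a 1.94-fold increase in PKM2-/- hearts (limma adjusted p = 0.000102).

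Txnrd2, the mitochondrial reductase, was close to undetected. In the order PKM2fl/fl then PKM2-/-, baseline hearts held 6 and 0, then 3 and 2 reads, and MI hearts held 2, 2 and 2, then 7, 2 and 0 reads. Sham hearts held 53, 3 and 103 reads in PKM2fl/fl and 13, 2 and 8 in PKM2-/-. It entered the test on its sham libraries alone (mean of at least 10 normalized counts over the 12 libraries), so its fitted change in PKM2fl/fl hearts, -2.51 with a limma adjusted p of 0.0473, is no evidence of a decrease. The fit gave -1.88 in PKM2-/- hearts, which did not pass (limma adjusted p = 0.117). Why Txnrd2 had so few reads was not tested.

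Of the 9 members other than Txnrd2, 2 were higher and 6 were lower after MI in PKM2fl/fl hearts, in a comparison in which 24.5% of all genes tested were higher and 23.9% were lower. In PKM2-/- hearts 3 were higher and 6 lower, against 28.5% and 26.8% of all genes. MI and sham hearts did not overlap for 8 members in PKM2fl/fl (59.1% of all genes did not) and for 9 in PKM2-/- hearts (62.5%). The median change of the 9 members was -0.98 and -0.84 on the log2 scale, beside 0.01 and 0.02 over all genes tested. With 3 hearts in each group, these p-values rest on each gene's spread pooled over the 4 groups and drawn toward a trend over all genes. The groups were not equally spread. For Nnt the log2 SD was 0.026 in PKM2fl/fl sham hearts and 0.62 in PKM2fl/fl MI hearts.

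The size of the changes depended on scaling. When libraries were scaled to their total reads, the median gene moved to -0.16 in PKM2fl/fl and to 0.53 in PKM2-/- hearts. All members kept their direction after MI, but Txn1 and Txnrd1 in PKM2fl/fl and Prdx2, Prdx5, Prdx6 and Txn2 in PKM2-/- hearts no longer passed. Over all genes, the calls of 5051 higher and 4929 lower in PKM2fl/fl became 2327 and 3247, and the calls of 5876 and 5517 in PKM2-/- became 6810 and 1746.

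**Figure D2:**
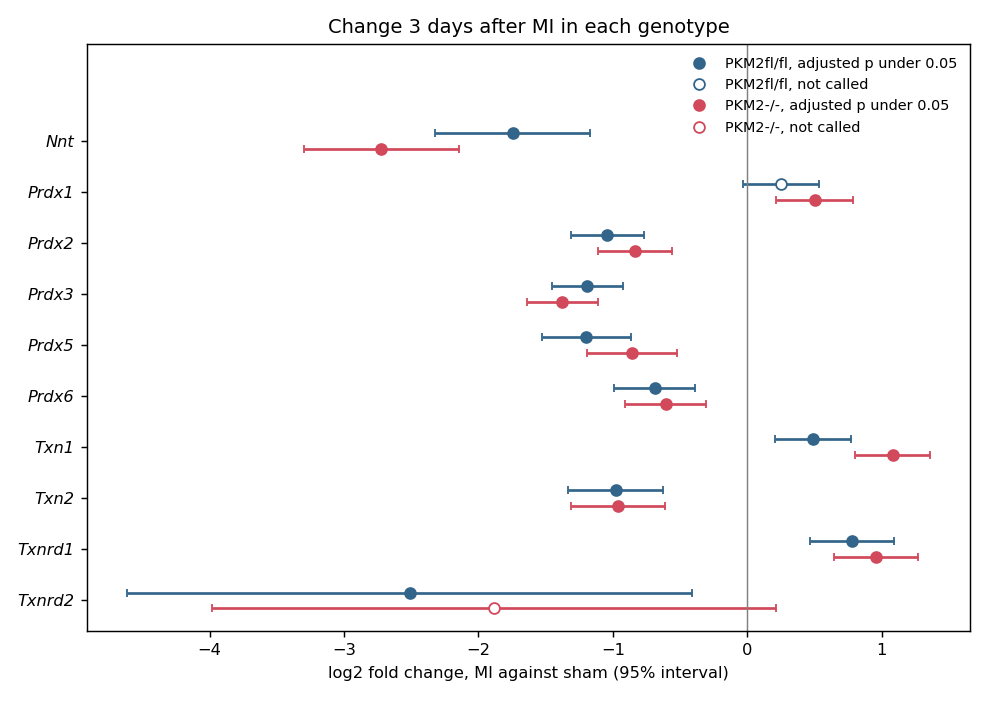
Log2 fold change between MI and sham hearts (horizontal axis) for each gene, in PKM2fl/fl (blue) and PKM2-/- hearts (red), with 95% intervals from limma. Filled points passed an adjusted p of 0.05; Nnt is farthest to the left of the genes with more than a few reads, at -1.75 and -2.72, and Txn1, Txnrd1 and Prdx1 lie to the right of 0.

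The makeup of the ventricle changed along with these genes. After MI, 7 of 8 cardiomyocyte genes were lower in PKM2fl/fl and 8 of 8 in PKM2-/- hearts, with median log2 changes of -1.84 and -2.20. Of 13 other mitochondrial genes (respiratory chain, citrate synthase and the like), 13 were lower in both genotypes, with medians of -1.51 and -1.63. Leukocyte genes were higher for 6 of 8 in both genotypes and fibroblast genes for 5 of 6. The remaining fibroblast gene was lower. Of 5 endothelial genes, 2 were higher in PKM2fl/fl hearts, and 1 was higher and 1 lower in PKM2-/- hearts. Of 4 atrial genes, 1 was higher in each genotype, and neither of the 2 adipocyte genes that could be tested passed. The summed cardiomyocyte level was at least 783971 normalized counts in each sham heart and ranged from 171811 to 398551 after MI. The summed leukocyte level ranged from 5196 to 10636 in sham hearts and from 20806 to 36690.1 after MI. All cardiomyocyte, mitochondrial, leukocyte and fibroblast genes had reads in every library, while the adipocyte gene Lep was at 0 in most groups. How far these shifts account for the members' changes was not tested. In bulk tissue, fewer cells of a type and less RNA per cell cannot be told apart.

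Each member was therefore also set against these lists within the same library, as its log2 level minus the mean log2 level of the list, which does not depend on scaling. This measure was chosen after the data were seen and has no test. The share of all genes with separate groups on this measure was not computed. Against the 13 mitochondrial genes, Nnt changed by -0.31 between sham and MI in PKM2fl/fl hearts, where the groups overlapped, and by -1.18 in PKM2-/- hearts, where they did not. Prdx3 changed by 0.25 and 0.17, Prdx5 by 0.24 and 0.68, and Txn2 by 0.46 and 0.58. These differences are positive, but the MI and sham hearts overlapped for Prdx3 in PKM2-/- and for Prdx5 in PKM2fl/fl hearts. Against the cardiomyocyte genes, Nnt changed by -0.03 and -0.63 with overlapping groups, and the other 8 well-measured members were higher after MI, from 0.52 for Prdx5 in PKM2fl/fl to 3.17 for Txn1 in PKM2-/- hearts. Against the leukocyte genes all 9 were lower, least for Txn1 (-1.16 and -0.86) and Txnrd1 (-0.87 and -0.98). Of the 9 members, Nnt alone had negative differences against both the mitochondrial and the cardiomyocyte genes, and its groups were separate in 1 of these 4 comparisons.

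**Figure D3:**
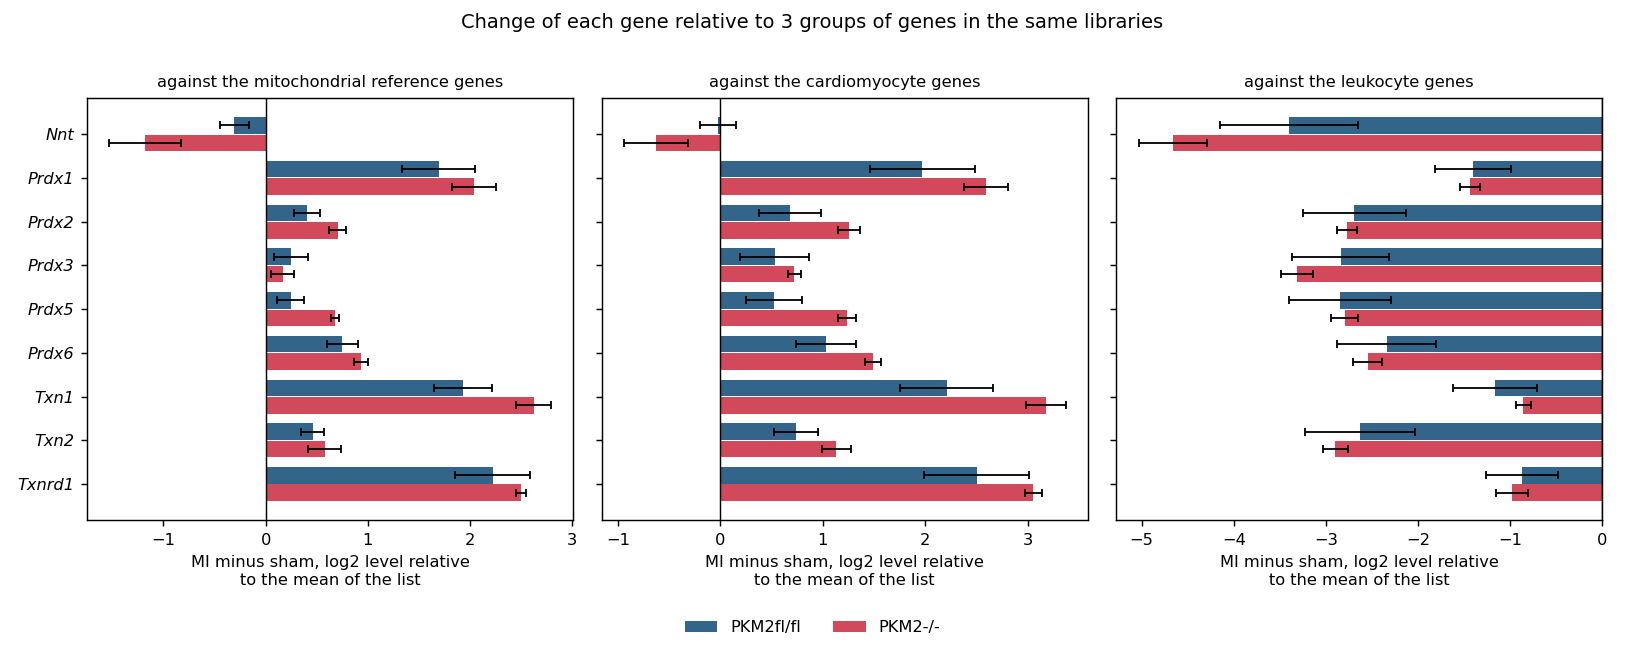
Difference between MI and sham hearts in the log2 level of each gene relative to the mean log2 level of 13 mitochondrial, 8 cardiomyocyte and 8 leukocyte genes (horizontal axes). Bars are differences of means of 3 libraries (blue PKM2fl/fl, red PKM2-/-), with the standard error of the difference; Nnt is the gene with bars left of 0 in the first and second panels, and all bars are left of 0 in the third.

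Partner genes of the thioredoxin system moved in both directions after MI. Of 17 thioredoxin partners, 5 were higher and 9 lower in PKM2fl/fl hearts, and 4 were higher and 5 lower in PKM2-/- hearts, with medians of -0.31 and -0.18. Of all genes tested, 24.5% were higher and 23.9% lower in PKM2fl/fl hearts, and 28.5% and 26.8% in PKM2-/- hearts. The 3 partners with the smallest p were the same in both genotypes. Txndc5, a protein disulfide isomerase of the endoplasmic reticulum, was higher (log2 1.39 and 1.51). Sesn1, a stress-induced sestrin, was lower (-1.41 and -1.48), and so was Msrb2, the mitochondrial methionine sulfoxide reductase (-1.35 and -1.61). Prdx4, the peroxiredoxin of the endoplasmic reticulum, and Srxn1, which repairs overoxidized peroxiredoxins, are named here after their values were seen. Prdx4 was higher by 1.13 and 1.26 and Srxn1 by 0.74 and 0.77 on the log2 scale.

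Members of the glutathione arm also moved both ways. Of 8 glutaredoxin and glutathione genes, 2 were higher and 3 lower in PKM2fl/fl hearts, and 4 were higher and 3 lower in PKM2-/- hearts. The shares of all genes were 24.5% higher and 23.9% lower in PKM2fl/fl hearts, and 28.5% and 26.8% in PKM2-/- hearts. Gsr, the reductase that uses NADPH to recycle glutathione, was higher by 1.00 and 1.67 (log2). Glrx5, a mitochondrial glutaredoxin needed for iron-sulfur proteins, was lower by -0.95 and -0.86. Glrx3, the third by p in PKM2fl/fl hearts, changed by -0.54, and Gclm, the modifier subunit of glutathione synthesis and the third in PKM2-/- hearts, by 0.69.

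Of 9 other genes for NADPH supply, 4 were higher and 4 lower in both genotypes. The shares of all genes were 24.5% higher and 23.9% lower in PKM2fl/fl hearts, and 28.5% and 26.8% in PKM2-/- hearts. The 2 dehydrogenases of the oxidative pentose phosphate pathway were higher, with Pgd at 1.42 and 1.74 and G6pdx at 1.35 and 1.46 on the log2 scale. The mitochondrial isocitrate dehydrogenase Idh2 was lower at -1.96 and -2.07, and the mitochondrial malic enzyme Me3 at -1.32 and -1.55. The list did not divide by compartment, since the mitochondrial Aldh1l2 was higher (1.25 and 1.19) and the cytosolic Me1 lower (-0.91 and -1.06) in both genotypes, both named after their values were seen. The summed level of the 9 genes fell from between 24364 and 30286 normalized counts in sham hearts to between 10353 and 14754 after MI. The sum is led by its abundant members, and so it moves with those that were lower.

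Between genotypes at baseline, Nnt had 8573 and 9309 normalized counts in PKM2fl/fl and 13360.1 and 13495 in PKM2-/- hearts, a log2 difference of 0.59. This is the contrast on which Nnt was selected, and it is given as a description. With scaling to total reads the difference was -0.0024, where the median of all genes was -0.59 and the other 8 well-measured members lay between -0.65 and -0.42, and with TMM scaling it was 0.57. The other well-measured members differed at baseline by -0.06 (Txn2) to 0.17 (Prdx6), and the 2 hearts of each genotype did not overlap for 5 of the 9 (Nnt, Prdx3, Prdx6, Txn1 and Txn2), as was the case for 34.8% of all genes.

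That choice rested on the baseline contrast. Earlier results of these data were known when the members were chosen, so the sham hearts are no independent check of the Nnt difference. After sham surgery, all 3 PKM2-/- hearts (9946 to 16439.6 normalized counts of Nnt) were again above all 3 PKM2fl/fl hearts (8228 to 8496). The log2 difference was 0.63 (95% interval 0.05 to 1.20), which did not pass after adjustment (limma adjusted p = 0.507). No gene passed in this comparison (0% of 20604 genes, while 1895 had an unadjusted p under 0.05, edgeR called 0 and DESeq2 212). Over the alternatives the adjusted p for Nnt ranged from 0.220 to 0.816. The difference was 0.46 without the PKM2-/- sham heart with 16439.6 counts, and 0.30 under scaling to total reads, where the median gene was -0.33. Relative to the mitochondrial genes of the same libraries, which needs no scaling, Nnt was higher in PKM2-/- hearts by 0.68 at baseline, the contrast of its selection, and by 0.73 after sham surgery, without overlap of the groups in either. Prdx6 (0.27 and 0.18) and Txnrd1 (0.18 and 0.27) were also above without overlap in both on this measure, by less. The share of all genes without overlap on this measure was not computed. Against the leukocyte genes, Nnt differed by 0.36 after sham surgery and the groups overlapped.

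Prdx2 was the other member whose sham hearts did not overlap between genotypes (3347 to 3737 in PKM2-/- and 3816 to 4300.0 in PKM2fl/fl hearts), in a comparison where 16.5% of all genes did not. The remaining differences after sham surgery lay between -0.20 (Prdx1, 95% interval -0.49 to 0.08) and 0.17 (Txnrd1, 95% interval -0.14 to 0.48), apart from Txnrd2.

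After MI no member passed between genotypes, in a comparison with 8 genes called of 20604 (0.0388%). Nnt overlapped between the genotypes. It had 1614 to 2518 normalized counts there and 1583 to 3726 in PKM2fl/fl hearts (log2 difference -0.35, 95% interval -0.92 to 0.23). Txn1 had the smallest p of the members. All PKM2-/- MI hearts (1954 to 2324) were above all PKM2fl/fl MI hearts (1418 to 1516), with a log2 difference of 0.53 (95% interval 0.25 to 0.81, limma adjusted p = 0.105). It passed with DESeq2 on the recovered reads (adjusted p = 0.0156), with all 16 libraries in the limma fit (adjusted p = 0.0494) and without PKM2fl/fl MI replicate 3 (limma adjusted p = 0.0352). It did not pass with edgeR (adjusted p = 0.0998), and over the alternatives its adjusted p ranged from 0.0156 to 0.285.

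Prdx3 was the other member without overlap after MI, with 1392 to 1706 normalized counts in PKM2-/- and 1723 to 2156 in PKM2fl/fl hearts, in a comparison where 19.0% of all genes did not overlap. The log2 difference was -0.37 (95% interval -0.63 to -0.10, limma adjusted p = 0.185). Without PKM2fl/fl MI replicate 3 it was -0.45 and passed (limma adjusted p = 0.0352), and under scaling to total reads it was 9.35e-05 (limma adjusted p = 1.00). Txnrd1 was higher in PKM2-/- hearts by 0.35 (95% interval 0.04 to 0.66, limma adjusted p = 0.274), with overlapping groups. PKM2fl/fl MI replicate 3 had the lowest summed cardiomyocyte level of all 16 libraries, 171811 normalized counts, against 398551 and 374606 in the other PKM2fl/fl MI hearts and 177046 to 253211 in the PKM2-/- MI hearts. It also had the lowest counts of Nnt, Prdx2, Prdx5, Prdx6 and Txn2 among the 6 MI hearts. Between genotypes after MI, the median difference was -0.44 for cardiomyocyte genes, -0.23 for mitochondrial genes and 0.22 for leukocyte genes, with 0 of each list passing. Their part in the differences of Txn1, Prdx3 and Txnrd1 was not tested.

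A difference between genotypes in the change with MI passed for no gene after adjustment (0% of 20604 genes, with 1468 at an unadjusted p under 0.05, 0 with edgeR and 33 with DESeq2). For Nnt the change was more negative in PKM2-/- hearts by -0.98 (95% interval -1.79 to -0.16, limma adjusted p = 0.677). Under scaling to total reads this was -0.29, where the median gene was at 0.68, and without PKM2fl/fl MI replicate 2 it was -0.69. For Txn1 it was more positive by 0.59 (95% interval 0.20 to 0.99, limma adjusted p = 0.594). For the other 7 well-measured members the interval included 0, and the estimates lay between -0.19 (Prdx3) and 0.34 (Prdx5).

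Sham hearts were also set against baseline hearts, 3 against 2 in each genotype. Whether differences between them came from the surgery was not tested. No member passed between sham and baseline hearts in PKM2fl/fl (0.190% of 20576 genes did) or PKM2-/- mice (5.14%). Nnt differed by -0.09 (95% interval -0.68 to 0.50) and -0.05 (95% interval -0.64 to 0.54) on the log2 scale. The sham and baseline hearts of PKM2fl/fl mice did not overlap for Nnt, Txn1 and Txn2, a state shared by 32.5% of all genes, and they overlapped for all 9 well-measured members in PKM2-/- mice, where 34.5% of all genes did not overlap. Txn1 had 865 and 872 normalized counts at baseline and 964 to 1256 after sham surgery in PKM2fl/fl hearts (log2 difference 0.28, 95% interval -0.0031 to 0.56). Leukocyte genes were higher in sham than in baseline hearts by a median of 0.96 (PKM2fl/fl) and 0.97 (PKM2-/-), with 0 and 3 of 8 passing. Fibroblast genes were higher by a median of 0.84 and 0.78 (0 and 3 of 6 passing), and atrial genes by 2.99 and 1.38 (0 and 1 of 4 passing).

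Genes whose pattern was closest to Nnt were found by Pearson's r of log2 values across the 16 libraries, among 20575 genes. The top 5 were Foxj2 (0.98), R3hdm2 (0.98), Nrd1 (0.98), Peg13 (0.97) and Ktn1 (0.97). These values mostly follow the split between MI and other hearts, which all the libraries share. After the group means were removed, Foxj2, a forkhead transcription factor, was again first (r = 0.97), followed by Mir8101, Gm48071, Gm28651 and Gm16271 (0.93 to 0.89), the last 4 of which had group means of only 5.01 to 78.8 normalized counts. For Foxj2 the r of deviations was 0.92 without the 2 libraries farthest from the median. It was 0.999 over the 6 MI libraries and 0.86 over the 10 others, and 0.69 over 8 of these 10 without the 2 farthest. The deviations share each library's scaling and composition. Foxj2 was lower after MI, with 982 to 1031 normalized counts in PKM2fl/fl sham hearts and 589.9 to 827 after MI, and 1063 to 1258 and 583 to 688 in PKM2-/- hearts. Its baseline levels (1129.9 ± 81.6 in PKM2fl/fl and 1083 ± 1.92 in PKM2-/-, SD, n = 2) did not share the higher level of Nnt in PKM2-/- hearts. After sham surgery, all PKM2-/- hearts were above all PKM2fl/fl hearts for Foxj2, as for Nnt. The sham hearts of the genotypes did not overlap for 16.5% of all genes.

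Among the members, Txn2 and Prdx3 were closest to Nnt in their deviations (r = 0.57 and 0.56 over 16 libraries), and Txnrd1 (-0.47) and Prdx1 (-0.43) were farthest. For Prdx3 the r was 0.77 without the 2 libraries farthest from the median, and for Txn2 it was 0.32. Over the 10 baseline and sham libraries the r was 0.45 for Prdx3 and 0.20 for Txn2, and without the 2 farthest of these it turned to -0.31 and -0.62. These are descriptions across libraries that share group structure.

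**Figure D4:**
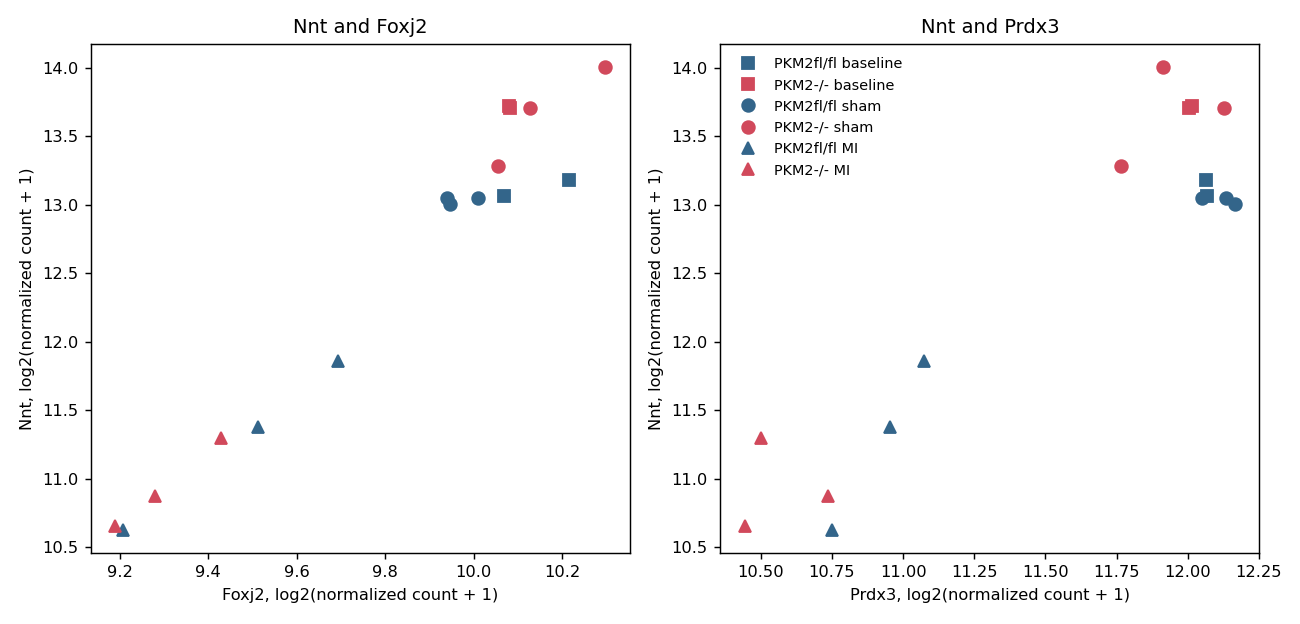
Log2(normalized count + 1) of Nnt (vertical axes) against Foxj2 (left) and Prdx3 (right) in the 16 libraries. Squares are baseline, circles sham and triangles MI hearts (blue PKM2fl/fl, red PKM2-/-); the 6 MI hearts lie near a line in the left panel, and the 5 PKM2-/- hearts without MI lie above the 5 PKM2fl/fl hearts without MI in Nnt but not in Prdx3.

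The genes next to Nnt on chromosome 13 were examined for the same differences. Paip1, the nearest on one side, had 1616 ± 33.1 and 1854 ± 42.3 normalized counts at baseline in PKM2fl/fl and PKM2-/- hearts (SD, n = 2) and 1730.0 ± 152 and 1649 ± 105 after sham surgery (SD, n = 3). The PKM2-/- hearts were higher at baseline and overlapped with PKM2fl/fl hearts after sham surgery. Mrps30, a mitochondrial ribosomal protein on the other side, had 679 ± 25.5 and 714.9 ± 87.0 after sham surgery. After MI, Paip1 changed by -0.51 and -0.49 and Mrps30 by -0.60 and -0.72 (log2), each less than Nnt. Fgf10, a growth factor gene, had log2 changes of -2.34 and -1.77, both of which passed, from sham means of 33.6 and 35.9 normalized counts to 8.74 and 10.2. 4833420G17Rik was higher after MI in PKM2-/- hearts (0.40) and did not pass in PKM2fl/fl hearts (0.16). For 4833420G17Rik the genotype difference after sham surgery was -0.24, which did not pass (limma adjusted p = 0.518). Tmem267, which lies just beyond these genes and is named after its values were seen, had 88.2 ± 8.43 and 236 ± 118 normalized counts at baseline (SD, n = 2), and 113 ± 27.9 and 155 ± 21.3 after sham surgery (SD, n = 3), in PKM2fl/fl and PKM2-/- hearts. Its sham hearts overlapped. Fgf10 had 14.1 and 17.9 normalized counts in PKM2fl/fl and 25.7 and 49.0 in PKM2-/- hearts at baseline, without overlap, and 3110070M22Rik had group means of 8.40 to 12.4 normalized counts.

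Reads of related loci were few. The pseudogene or paralog rows Prdx6b, Txn-ps1, Prdx2-ps1, Prdx2-ps2, Prdx1-ps and Prdx6-ps2 had means of 0 to 7.86 normalized counts over the 16 libraries, so that reads lost to them or gained from them would be a small share of any member other than Txnrd2. Prdx5 overlaps Trmt112 (group means of 231 to 348 normalized counts), Prdx1 overlaps AV051173, and Txnrd1 overlaps Gm38560 and Eid3. Whether the counting used strand is not given in the sources used here, so reads in the shared stretches cannot be assigned.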

How the data were processed

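RNA of left ventricles was depleted of rRNA and sequenced in pairs. Per the labels and the paper's methods, the authors used PRINSEQ for trimming, HISAT2 for alignment (mm10) and featureCounts for counting per gene. The deposited table holds a signal for every gene in every library, which is a read count scaled with DESeq2 size factors (normalized count). The authors also deposited a baseline comparison, which was not used: a mean signal, a log2 fold change, its standard error and test statistic (scores), and a p-value with its adjusted form. Strand and multi-mapping settings are not given in the sources used here.

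The deposited values of each library were multiples of one step, and 100% came out whole within 0.1 reads, so reads were recovered by division. There were 0 columns without a sample. Libraries held 20623769 to 71855101 reads. Samples were grouped by their labels, which the design text calls biological replicates, 2 or 3 per group.

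The planned test for normalized values was used: limma 3.58.1 in R 4.3.3 (limma-trend, log2 of the value plus 1, mean of at least 10) was fitted to the 12 sham and MI libraries in 4 groups, or to all 16 in 6 groups for sham against baseline. P-values were adjusted by Benjamini-Hochberg over all genes. Tested on simulated data, it recovered most of the changed genes. In that simulation few genes changed, in a single group and by at least 2-fold, and all genes had the same dispersion. The MI comparisons, with far more genes called, differ from this setting, so the simulation does not show how the test performs there. The alternatives were TMM and total-read scaling, edgeR 4.0.16 and DESeq2 1.42.0 on recovered reads, a pseudocount of 0.1, no filter, the replicate number as a block, other sets of libraries, a 2-fold limit, and each library left out. The members and gene lists were chosen with earlier results of these data known. Named genes are the 10 members, at most 3 genes by smallest p per list, the 5 genes most like Nnt by each measure, the 3 genes on either side of it with a mean of at least 10, and related loci, of which some are not reported here. Correlations of same-numbered libraries' deviations ran from -0.075 to 0.123, so the numbers were not taken to pair animals. Positions and promoters are from RefSeq on GRCm38.p6, and gene lists matched for 87 of 87 genes. All 10 members matched the position table and 8 the promoter table.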

Additional observations from a re-analysis of the deposited data

How the results depend on the processing

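The number of members called between MI and sham hearts was 9 in each genotype, Txnrd2 included in PKM2fl/fl. It was 5 and 3 when a 2-fold change was also required, and 5 in PKM2-/- hearts under scaling to total reads. Between genotypes after MI the number was 0, and it was 1 with DESeq2 and 1 with all 16 libraries (Txn1 in both), and 0 to 2 with 1 library left out (2, Txn1 and Prdx3, without PKM2fl/fl MI replicate 3). It was 0 under every alternative for genotype after sham surgery, for the interaction and for sham against baseline. With the replicate block, 9 and 9 members passed between MI and sham hearts, and 0 in each of the others, and the block changed no call. Over all genes, DESeq2 called 212, 759 and 33 genes for genotype after sham surgery, genotype after MI and the interaction, where limma called 0, 8 and 0. With all 16 libraries limma called 2 and 199 for the first and second of these.

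Of the differences between genotypes that changed sign, Prdx3 after MI passed in 1 setting (given above) and the others in none. After sham surgery, total-read scaling gave Prdx6 -0.24 and Txnrd1 -0.15. Leaving out 1 library moved Prdx5 between -0.12 and 0.040 and Txn1 between -0.17 and 0.061. After MI, total-read scaling gave Nnt 0.019, Prdx3 9.35e-05 and Txn2 0.30. edgeR and DESeq2 gave Prdx2 -0.0097 and -0.00017 and Txnrd2 0.16 and 0.094. Leaving out 1 library moved Prdx1 between -0.046 and 0.13, Prdx2 between -0.12 and 0.14, Txn2 between -0.28 and 0.10 and Txnrd2 between -1.14 and 0.23. For the interaction, total-read scaling gave Prdx3 0.50, edgeR and DESeq2 gave Txn2 -0.028 and -0.025, and the pseudocount of 0.1 gave Txnrd2 -0.26. Leaving out 1 library moved Prdx6 between -0.056 and 0.20, Txn2 between -0.20 and 0.19 and Txnrd2 between -0.088 and 1.73. The causes were not tested, except that total-read scaling shifted the median of all genes by its construction, to -0.33 after sham surgery, 0.36 after MI and 0.68 for the interaction. Txnrd2 lost its call in PKM2fl/fl hearts in 7 settings, among them a pseudocount of 0.1 (adjusted p = 0.122). With 2 or 3 hearts per group, intervals for single genes spanned about 0.5 log2 units or more, and Txnrd2 had too few reads for its changes to be read.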
